A study of Rattus norvegicus with 3 samples.

Results

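The first 17 Mb of rat chromosome 2 hold 2 domains of the histone mark H3K9me3 that differ in how much of a second mark, H3K4me3, lies with them. The stretch was chosen by position together with measured values, namely the density of H3K4me3 peaks between 0 and 4 Mb and their rarity between 13 and 17 Mb. The H3K9me3 domains of the stretch were known as well when it was chosen. All these values are given below as a description. All peaks of chromosome 2 that start below 17 Mb are included, which gives 70 of the 7684 H3K4me3 peaks and 1680 of the 49591 H3K9me3 peaks of the series. Proximal is used here for low coordinates in the rat build rn6.

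The data come from round spermatids, the haploid male germ cells between meiosis and elongation, taken from the testis of untreated Sprague-Dawley rats. Chromatin immunoprecipitation and sequencing gave 1 library for H3K4me3 and 1 for H3K9me3, and a library made without antibody accompanied them. The lists are read as enrichment over that library. The labels do not state this, and the word negative in the naming of the lists could instead mean peaks called with control and precipitate exchanged. Each mark rests on 1 library of unknown depth, so there is no replicate error and no test between regions or marks. Intervals cover counting error only and treat peaks as independent, which neighbouring peaks are not.

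H3K4me3 is laid down mainly at the start sites of active genes by methyltransferase complexes of the SET1 and MLL type. H3K9me3 is laid down by SETDB1 and the SUV39H enzymes, is bound by HP1 proteins, and is known for silencing satellite repeats, transposable elements and clusters of related genes. In male germ cells it also marks the silenced sex chromosomes. The marks were precipitated separately, so an overlap of peaks shows that both were listed at one position, not that one nucleosome, one allele or one cell carried both.

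H3K9me3 was concentrated in the first 17 Mb. These make up 6.38% of the span of chromosome 2, which was taken as 266 Mb up to its last peak, and they held 32.7% of its 5144 H3K9me3 peaks and 36.6% of the length in such peaks. H3K9me3 peaks covered 13.8% of the stretch, 8.46 times the 1.63% of the rest of the chromosome. The stretch held 11.2% of the 627 H3K4me3 peaks of the chromosome, or 4.12 per Mb against 2.23 per Mb in the rest. Of its 17 windows of 1 Mb, 10 were over 5% covered by H3K9me3, against 17 of the 250 windows of the rest (6.8%) and 9.8% of the 2786 windows of chromosomes 1 to 20 and X.

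**Figure D1:**
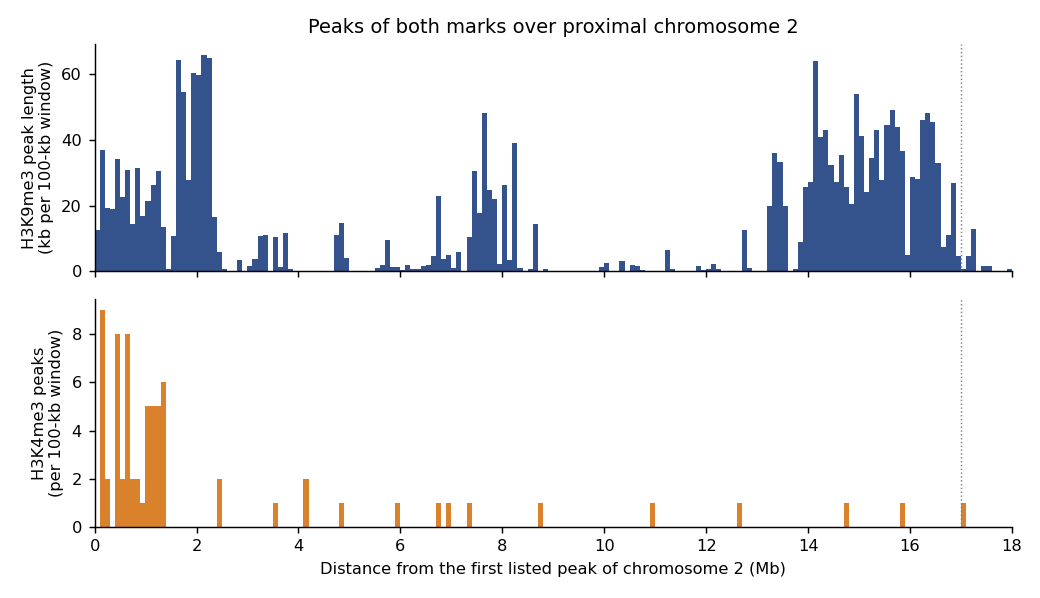
Length in H3K9me3 peaks (top, kb) and number of H3K4me3 peaks (bottom) in windows of 100 kb of the chromosome's own coordinates, each drawn at the distance in Mb of its centre from the first listed peak of chromosome 2. The dotted line marks the 17 Mb border, and 55 of the 70 H3K4me3 peaks stand in the first block of H3K9me3.

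The windows divide the stretch into a proximal domain, a middle part and a distal domain. From 0 to 1, 1 to 2, 2 to 3 and 3 to 4 Mb, H3K9me3 peaks covered 238, 310, 217 and 51.7 kb. The last of these windows, at 5.17%, only just passed the 5% that defines a domain as at least 3 neighbouring windows. Between 4 and 13 Mb the windows ranged from 1.30 kb at 9 to 10 Mb to 163 kb at 7 to 8 Mb. The windows from 13 to 17 Mb held 144, 370, 350 and 280 kb. Those from 14 to 15 and 15 to 16 Mb ranked 1 and 2 among the 267 windows of chromosome 2 for H3K9me3 cover, and that from 1 to 2 Mb ranked 3. After 17 Mb the cover dropped to 22.6 kb in the next window. The median window of the rest of the chromosome held 4.39 kb.

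H3K4me3 peaks were placed otherwise. The same windows held 34, 21, 2 and 1 H3K4me3 peaks from 0 to 4 Mb, and 0, 1, 1 and 0 from 13 to 17 Mb. No window between 4 and 13 Mb held more than 3. On chromosome 2 the window from 0 to 1 Mb ranked 2 of 267 for H3K4me3 peaks and the window from 1 to 2 Mb ranked 4. The window richest in H3K9me3, from 14 to 15 Mb, held 1 H3K4me3 peak, as did the median window of the rest.

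Taken as wholes, the 2 domains were both dense in H3K9me3 and far apart in H3K4me3. From 0 to 4 Mb there were 569 H3K9me3 peaks, 142 per Mb (95% Poisson interval 131 to 154), over 20.4% of the sequence. From 13 to 17 Mb there were 789 peaks, 197 per Mb (184 to 212), over 28.6%. The distal domain thus had 1.40 times the H3K9me3 cover of the proximal one. The rest of chromosome 2 had 13.9 peaks per Mb (13.4 to 14.4). Against its cover of 1.63%, the cover of the proximal and distal domains was 12.6 and 17.6 times as high. H3K4me3 counted 58 peaks from 0 to 4 Mb, 14.5 per Mb (11.0 to 18.7), and 2 peaks from 13 to 17 Mb, 0.5 per Mb (0.0606 to 1.81). The rest of the chromosome, with 2.23 per Mb (2.05 to 2.43), lay between them. The part from 4 to 13 Mb held 10 H3K4me3 peaks, 1.11 per Mb (0.533 to 2.04), and 322 H3K9me3 peaks, 35.8 per Mb (32.0 to 39.9).

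**Figure D2:**
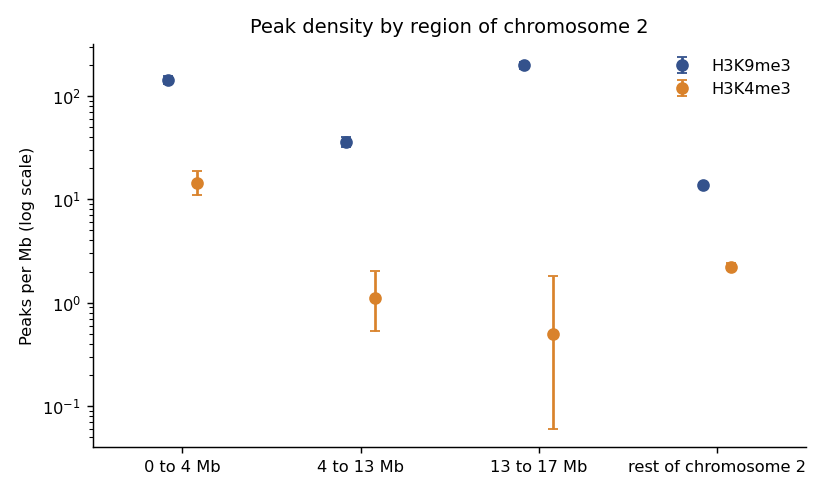
Peaks per Mb on a log scale for H3K9me3 (blue) and H3K4me3 (orange) in 4 regions of chromosome 2, with exact 95% Poisson intervals as bars. H3K9me3 was at 142 and 197 peaks per Mb in the proximal and distal domain, while H3K4me3 was at 14.5 and 0.5.

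Among the 29 domains found with the same definition on chromosomes 1 to 20 and X, the 2 domains stood near opposite ends for H3K4me3. The distal one ranked 4 of 29 in the share covered by H3K9me3 and 28 of 29 in H3K4me3 peaks per Mb. The proximal one ranked 10 in H3K9me3 cover and 5 in H3K4me3 peaks per Mb. On chromosome 8 the domain from 0 to 4 Mb, equal to the proximal one in position, had 24.1% in H3K9me3 peaks and 3 H3K4me3 peaks. On chromosome 9, H3K9me3 peaks took up 22.6% of the domain from 4 to 9 Mb, which held 92 H3K4me3 peaks, 18.4 per Mb, of which 94.6% lay on H3K9me3. Chromosome 5 has, from 10 to 14 Mb, the one domain that ranked below the distal domain for H3K4me3 density, with 1 peak at an H3K9me3 cover of 19.9%. These differences between domains were not tested, since each mark has 1 library.

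The proximal domain was not uniform. To divide it without use of H3K4me3, H3K9me3 peaks were joined into islands wherever neighbours lay at most 150 kb apart, and islands of at least 20 peaks were kept. This rule was chosen after the values were seen. It gave 347 islands on the assembled chromosomes and 7 that start within the 17 Mb. The first ran from position 3100 to 1409724, and after an interval of 163 kb without an H3K9me3 peak the second ran from 1572476 to 2570811. The remaining ones ran from 3069125 to 3807656, 4754785 to 4929709, 5590931 to 8304511, 13229094 to 13552623 and 13791481 to 17276103.

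The first island carried nearly all of the 58 H3K4me3 peaks from 0 to 4 Mb. It held 55 H3K4me3 peaks, 39.1 per Mb (29.5 to 50.9), with 293 H3K9me3 peaks over 23.5% of its length. This density depends on the island rule. Joined at up to 250 kb, the first and second islands became one with 22.2 H3K4me3 peaks per Mb, and with peaks at or above the list median score the first island had 24.9 per Mb. The second island held more H3K9me3, with 225 peaks over 43.2% of its length, and 2 H3K4me3 peaks, 2.00 per Mb (0.243 to 7.24). It ranked 7 of 347 in H3K9me3 cover, and the first ranked 33 of 347 in H3K4me3 density. No H3K4me3 peak lay between 1385272 and 2455381, an interval of 1070 kb that includes most of the second island. From the end of the first island to 17 Mb, H3K4me3 counted 15 peaks in 15.6 Mb, 0.962 per Mb (0.539 to 1.59), which was below the rest of the chromosome. The H3K4me3 density of 0 to 4 Mb thus described the first 1.41 Mb.

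The other islands also held few H3K4me3 peaks. The Poisson intervals of their densities all include the 2.23 per Mb of the rest of chromosome 2. The third island, at the end of the proximal domain, held 1, or 1.35 per Mb (0.0343 to 7.54). In the middle part, island 4 held 1 in 175 kb at 17.2% cover, or 5.72 per Mb (0.145 to 31.9). Island 5 held 4 in 2714 kb at 10.8% cover, or 1.47 per Mb (0.402 to 3.77). The sixth held 0 H3K4me3 peaks in 324 kb at 33.7% cover. This allows up to 11.4 per Mb by its Poisson interval, so the island is too short to set it apart from the rest of the chromosome. The seventh, with 725 H3K9me3 peaks over 30.2% of 3485 kb, held 3 H3K4me3 peaks, 0.861 per Mb (0.178 to 2.52), one of which lay beyond 17 Mb. It was the island of rank 9 by length among the 347. Over all islands the median was 2.11 H3K4me3 peaks per Mb, and 34.6% of them held none. Of the 79 islands over 1 Mb long, 12 had over 20 H3K4me3 peaks per Mb, the first island among them, and 28 had no more than 1 per Mb, the seventh among them.

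**Figure D3:**
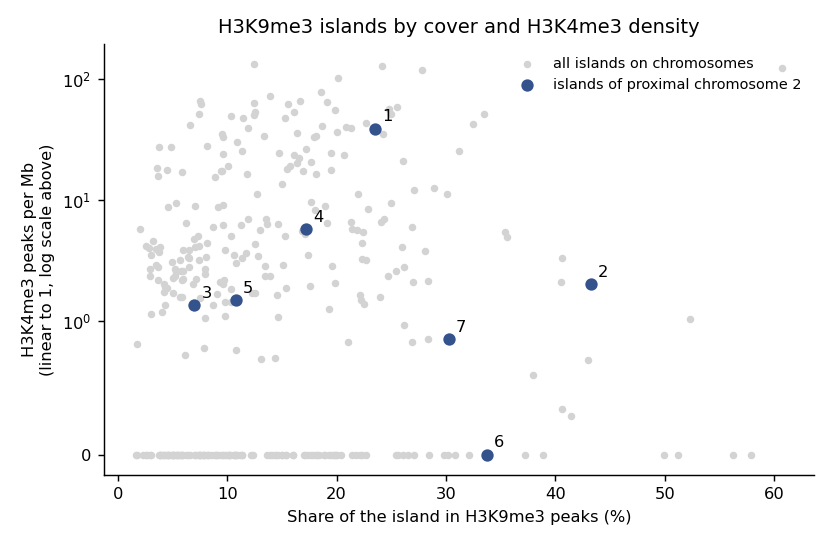
Share of each H3K9me3 island in H3K9me3 peaks (x axis, %) against its H3K4me3 peaks per Mb (y axis, linear to 1 and on a log scale above) for 347 islands in grey and the 7 islands of proximal chromosome 2 in blue, numbered by position. Island 1 stands at 39.1 per Mb, island 2 at 2.00 per Mb with the higher cover, and island 7 at 0.861 per Mb.

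Within the first island, every H3K4me3 peak lay on an H3K9me3 peak. All 55 overlapped by at least 1 bp (Wilson interval 93.5 to 100%), against 33.4% (29.6 to 37.4%) of the 557 H3K4me3 peaks in the rest of chromosome 2 and 31.9% of the peaks on all assembled chromosomes. These shares are not like for like, since H3K9me3 peaks covered 23.5% of the island and 1.63% of the rest of the chromosome. The share that cover alone would give was not computed. The overlap was nearly complete in length as well. H3K9me3 peaks included 98.8% of the H3K4me3 length of the island. This was near the 93.0% for those H3K4me3 peaks of the rest of chromosome 2 that lay on H3K9me3. In the island 43 of the 55 peaks lay whole inside 1 H3K9me3 peak. The least included one still had 80.8% of its length on H3K9me3. The median distance between the centres of overlapping peaks was 279 bp. Such islands were found elsewhere too. Of the 69 islands of the genome with at least 10 H3K4me3 peaks, 25 had all of them on H3K9me3.

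Of the other 15 H3K4me3 peaks below 17 Mb, 3 lay on H3K9me3. From the end of the first island to 4 Mb, 0 of 3 did, between 4 and 13 Mb 2 of 10 (20%, 5.67 to 51.0%), and between 13 and 17 Mb 1 of 2. The counts are too small to compare these shares with the 33.4% of the rest. The 12 peaks away from H3K9me3 lay between 0.559 and 388 kb from the nearest H3K9me3 peak, with a median of 34.4 kb. Their scores had a median of 38.2. H3K4me3 peaks away from H3K9me3 had a median of 40.45 in the rest of chromosome 2 and 43.64 on all assembled chromosomes. Of the 12 peaks 8 were below 50, and the median of the whole H3K4me3 list was 49.5. The score is the authors' own value for each peak, and both lists begin at a score of 30.

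Seen from H3K9me3, the peaks shared with H3K4me3 were a small part of the first island. Of its 293 H3K9me3 peaks, 47 lay on H3K4me3 (16.0%, 12.3 to 20.7%), against 4.44% on all assembled chromosomes and 4.47% in the rest of chromosome 2. From 13 to 17 Mb, where 2 H3K4me3 peaks are listed, it was 1 of 789 (0.127%). Such shares are limited by the number of H3K4me3 peaks, which helped to choose these stretches, so they are a description. The remaining 246 H3K9me3 peaks of the island gave 175 per Mb and 232 of its 330 kb in peaks. The rest of the chromosome had 13.9 per Mb, but the island rule asks for H3K9me3 peaks close together. A higher density was thus built into the rule and is a description.

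The shared peaks had the highest H3K9me3 scores. In the first island the 47 shared peaks had a median score of 652.5 with quartiles of 318 and 1158, and the 246 others a median of 74.4 with quartiles of 45.6 and 145. The ranges overlapped, the lowest shared peak being at 31.3 and the highest other peak at 993. Of the 20 peaks with the highest scores, 17 lay on H3K4me3. Shared peaks were also wider, with a median of 1757 bp against 742.5 bp, and the part of width in the overlap was not tested. The same order was found in the rest of chromosome 2, where the medians were 314 for 155 shared peaks and 54.5 for 3309 others.

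High-scoring H3K9me3 peaks without H3K4me3 existed in the same 17 Mb. At a score of at least 300, 36 of 59 peaks of the first island lay on H3K4me3 (61.0%, 48.3 to 72.4%). From its end to 4 Mb it was 0 of 38, and from 13 to 17 Mb 0 of 50. In the rest of chromosome 2 it was 79 of 211 (37.4%, 31.2 to 44.1%), and on all assembled chromosomes 28.2%. From the end of the first island to 4 Mb only 3 H3K4me3 peaks are listed, and from 13 to 17 Mb only 2. The shares of these stretches could therefore only be low. H3K4me3 density was part of the choice of the 17 Mb, so the shares are a description.

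**Figure D4:**
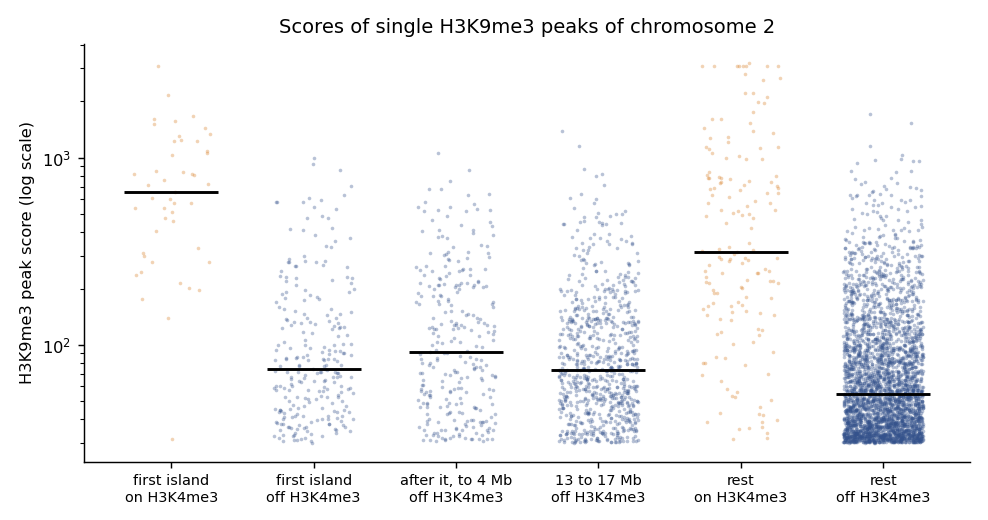
Scores of single H3K9me3 peaks of chromosome 2 on a log scale, with peaks that overlap H3K4me3 in orange, others in blue, and the median as a black line. The median of shared peaks in the first island, 652.5, lies above those of the 3 sets from the first 17 Mb without H3K4me3, 74.4, 91.1 and 73.3.

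The scores of overlapping peaks rose together loosely. Over the 56 overlapping pairs of the first island Spearman's rho was 0.46, and over the 196 pairs of the rest of chromosome 2 it was 0.21. These are descriptions across sites that share their libraries, with no p-value. Many pairs of the rest tie at an H3K9me3 score of exactly 3100, so the rho values are not like for like. H3K4me3 scores in the island had a median of 55.9, against 49.4 on all assembled chromosomes. Of the 55 peaks 12 had a score of 100 or more, against 22.2% on all assembled chromosomes. Their widths had a median of 840 bp, against 868 bp in the rest of the chromosome.

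**Figure D5:**
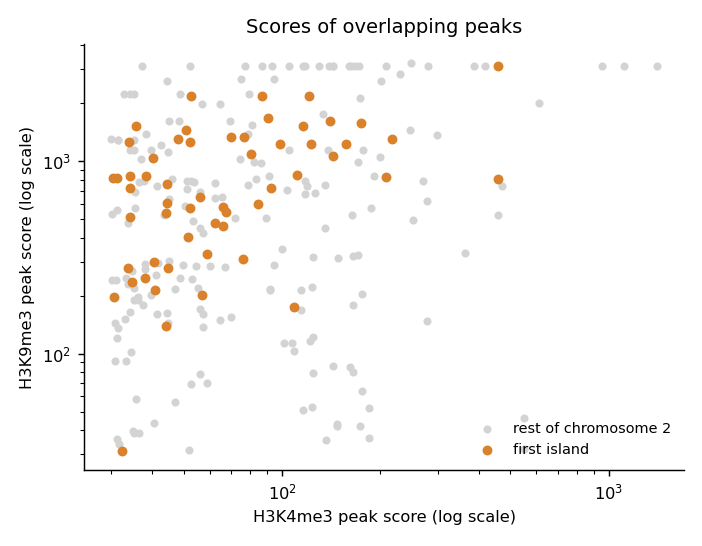
H3K4me3 score (x axis) against H3K9me3 score (y axis), both on log scales, for overlapping pairs of the first island (orange, 56 pairs) and of the rest of chromosome 2 (grey, 196 pairs). Most pairs of the first island combine an H3K4me3 score below 100 with an H3K9me3 score above 300.

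The H3K4me3 peaks of the first island stood in small groups. Joined at distances of at most 10 kb, they formed 25 groups, of which 14 were single peaks and 9 had 3 peaks or more and held 37 of the 55. The largest group had 7 peaks from 633664 to 661725, with 8 H3K9me3 peaks over the same 28.1 kb. The group from 432232 to 438777 held the strongest pair. There the H3K4me3 peak at 435545 to 438777, with a score of 458, met the H3K9me3 peak at 435520 to 437992, whose score of 3100 was the highest of the 17 Mb. The value of exactly 3100 recurs among H3K9me3 scores of the rest of chromosome 2. It is not the upper limit of the list, since the highest score there was 3206. Why it recurs was not tested. The next H3K9me3 peak by score, at 480776 to 487886 with 2173, was 7111 bp wide and held 3 H3K4me3 peaks, the best at 121. The third, at 1105894 to 1110143 with 1672, held 1 H3K4me3 peak with a score of 90.5. Among H3K4me3 peaks, those at 1301177 to 1302864 and 432232 to 433384 followed with scores of 218 and 208, on H3K9me3 peaks of 1299 and 820.

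In the distal domain the 3 H3K9me3 peaks with the highest scores were also the 3 widest of the 17 Mb. The highest score, 1394, belonged to the peak at 14131835 to 14143101, which was 11267 bp wide. The peaks at 15266970 to 15274482 and 14944984 to 14953584 followed with 1157 and 874 and widths of 7513 and 8601 bp. None of these 3 met an H3K4me3 peak. Peaks over 5 kb numbered 13 of 789 in this domain and 8 of 569 from 0 to 4 Mb, shares near the 1.68% of all assembled chromosomes. The 2 H3K4me3 peaks of the domain were weak and narrow. The one at 14701210 to 14701853 had a score of 38.2 and lay 3.44 kb from the nearest H3K9me3 peak, and the one at 15831180 to 15831785 had 36.6 and lay whole within an H3K9me3 peak with a score of 174.

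H3K9me3 peaks of both domains ran in long chains. Joined at distances of at most 10 kb, the peaks from 13 to 17 Mb formed 56 chains, 16 of them over 50 kb, and those held 76.3% of the H3K9me3 length. From 0 to 4 Mb there were 52 chains, 8 over 50 kb, which held 79.0%. In the rest of the chromosome 25 of 1253 chains were that long and held 29.3%. The domains were defined by their H3K9me3 cover, which favours long chains, so this difference is a description. The longest chain of chromosome 2, with rank 8 of 13197 on the assembled chromosomes, lay in the second island. It ran from 1861394 to 2321908 with 150 peaks over 62.6% of 461 kb and met no H3K4me3 peak. The chains of rank 2 and 3 on the chromosome, from 16128700 to 16363020 and from 15654760 to 15885529, were 234 and 231 kb long, lay in the distal domain and met 0 and 1 H3K4me3 peaks. The longest chain of the first island, from 546444 to 680258, was 134 kb long, 37.5% covered, and met 9.

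Single H3K9me3 peaks also differed between the parts. The median score was 90.6 from 0 to 4 Mb, 53.9 from 4 to 13 Mb, 73.4 from 13 to 17 Mb and 56.4 in the rest. Peaks with a score of at least 100 made up 46.9%, 20.5%, 35.5% and 26.0% of the peaks of these parts, and 30.8% on all assembled chromosomes. The quartiles overlapped, from 49.2 to 219 in the proximal and from 47.7 to 133 in the distal domain. Median widths were 967 bp and 1123 bp. In the proximal domain the peaks of the first island had a median width of 800 bp, and those from its end to 4 Mb 1278 bp, at nearly equal median scores of 90.2 and 91.1.

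Between the domains, H3K4me3 peaks were few, while H3K9me3 peaks covered 4.19%, which is 2.58 times the share in the rest of the chromosome. The longest interval without a peak of either mark ran from 8821259 to 9912210 over 1091 kb, followed by 661 kb from 4929710 and 558 kb from 4196519. The middle part still held island 5, whose densest window, from 7 to 8 Mb, ranked 12 of 267 on the chromosome, with 128 H3K9me3 peaks and 1 H3K4me3 peak. Its strongest H3K9me3 peak, at 7429749 to 7436975, had a score of 684. The strongest H3K4me3 peak of the middle part, at 8733597 to 8736263 with a score of 123 and a width of 2667 bp, lay 50.4 kb from the nearest H3K9me3 peak. It was the one H3K4me3 peak between the first island and 17 Mb with a score of at least 100.

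At the 17 Mb border the seventh island was cut. The last H3K9me3 peak inside, at 16985650 to 16986748, had a score of 46.7, and the first outside, at 17053866 to 17054742, had 63.8. With that first one included, 15 H3K9me3 peaks of the island, over 18.5 kb, started beyond the border. The last H3K4me3 peak inside was that at 15831180, and the first outside, at 17079406 to 17079957, had a score of 31.6 and lay off H3K9me3.

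The contrast between the 2 domains recurred on the same chromosome. The window from 194 to 195 Mb held 45 H3K4me3 peaks, all on H3K9me3, with 265 kb in H3K9me3 peaks, and that from 156 to 157 Mb held 32, again all on H3K9me3, with 177 kb. Such overlap was not complete in every rich window. In the next by H3K4me3 count in the rest, from 195 to 196 Mb, 15 of 20 peaks lay on H3K9me3. The window from 107 to 108 Mb held 292 kb in H3K9me3 peaks and 0 H3K4me3 peaks. The island from 193837380 to 195487408 had 60 H3K4me3 peaks, all on H3K9me3, at 36.4 per Mb (27.7 to 46.8), with 330433 bp in H3K9me3 peaks against 330463 bp in the first island. The genes and repeats under these peaks were not analysed here, because no annotation or sequence of rn6 was used.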

How the data were processed

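Peak lists of 2 libraries, 1 for H3K4me3 and 1 for H3K9me3, were analysed, and the library without antibody entered no calculation. The build rn6 and the tools Bowtie 1.2, FastQC and bcl2fastq are named, without roles, in the submitters' processing notes. Peak names in the deposited lists carry the prefix MACS. Not given in the sources used here: caller settings, duplicates and reads with several places. The authors deposited a start, an end and a score for each peak, with no header that defines the score. Scores depend on depth, which is unknown, and were compared within a list.

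Starts are printed counted from 1. Peaks were placed by their start, and overlap means at least 1 bp. Chromosome spans end at the last peak of either list. Poisson intervals are exact and shares have Wilson intervals, both at 95%. The overlap, window and island code was tested on simulated data. Calculations used pandas 2.3.3, numpy 2.4.6 and scipy 1.17.1 in Python 3.11.15, and plots matplotlib 3.10.9. Named peaks are, per mark and part, the 3 with the highest score, the 3 widest H3K9me3 peaks, and all H3K4me3 peaks from 13 to 17 Mb. Others, such as peaks at borders, were named after their values were seen. Members, regions and rules were chosen with earlier results of these data known. Alternatives were a higher score minimum, other overlap rules, region borders, domain rules, means, and, added after seeing the data, other island rules.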

Additional observations from a re-analysis of the deposited data

How the results depend on the processing

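Of 103 alternative values, 60 stayed within the main value's interval (for cover, that of the peak number; for means, the quartiles; for counts, 1.5 times) and 43 did not. Values are given in the order 0 to 4, 4 to 13, 13 to 17 Mb and rest of chromosome 2. With scores at or above the list median, H3K4me3 cover was 1.01, 0.0384, 0 and 0.160%, H3K4me3 peaks per Mb 8.75, 0.222, 0 and 1.03, H3K9me3 cover 17.1, 2.66, 22.2 and 1.08%, and H3K9me3 peaks per Mb 94, 15.9, 117.75 and 6.41. The share of H3K4me3 peaks on H3K9me3 was then 0% from 4 to 13 Mb and 43.4% in the rest, with no H3K4me3 peak left from 13 to 17 Mb to give a share. That of H3K9me3 peaks on H3K4me3 was 0, 0 and 5.94% from 4 Mb on. Within 1 kb it was 11.1% from 0 to 4 Mb and 5.54% in the rest. With 0 to 3 and 14 to 17 Mb, the proximal domain had 1.86% H3K4me3 cover, 19 H3K4me3 peaks per Mb, 25.5% H3K9me3 cover and 173 H3K9me3 peaks per Mb. The middle then had 5.23% and 43.5, and the distal domain 33.3% and 227. With 0 to 5 and 12 to 17 Mb, H3K9me3 cover was 16.9, 4.70 and 23.2%, with 119 and 161 peaks per Mb in the 2 domains. The mean H3K9me3 score of the rest was 118, above the 114 of 13 to 17 Mb, so that means ordered these parts opposite to medians. The main rule gave 3 domains on the chromosome and 2 below 17 Mb. Windows of 0.5 Mb over the same 3 Mb gave 1 and 1, that from 13 to 17 Mb, while the proximal one was too short, and chains over 100 kb numbered 21 and 15. Island rules were varied after the data were seen. With islands joined at 250 kb, the first 2 merged and H3K4me3 fell to 22.2 per Mb. With islands from scores at or above the median it was 24.9. No paired analysis was possible because each mark has 1 library.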
